A study of Arabidopsis thaliana with 12 samples.

Results

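Pools of flower bud, rosette and stem of Arabidopsis differed in how much transcript of the floral homeotic genes they held. Of the 9 libraries compared here, 3 stood below the other 6. The 9 libraries outside the dyw2 homozygous group were ranked by a flower score, the mean of log2(CPM + 1) over the 4 floral genes AP3, PI, AG and SEP3, and the 3 lowest (called bud-poor here) were set against the other 6 (bud-rich). CPM is the count of a gene scaled to 1e6 counts of all nuclear genes in that library. The series holds 12 libraries in all. The bud-poor libraries were dyw2 heterozygous replicate 2 and nuwa homozygous replicates 1 and 2. The bud-rich libraries were dyw2 heterozygous replicates 1 and 3, all 3 nuwa heterozygous libraries and nuwa homozygous replicate 3. The 3 dyw2 homozygous libraries were left out of the ranking, and their values are given beside the others. The members were chosen by the measured levels of these 4 genes, so the contrast of bud-poor with bud-rich libraries is described throughout with no test.

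The plants carried T-DNA insertions in DYW2 or in NUWA (also named OTP100), genes for organelle pentatricopeptide repeat proteins, and were labelled heterozygous or homozygous, with 3 libraries in each of 4 groups. No library is labelled wild type in its title or genotype field, so every group carries an insertion by its labels, although heterozygous plants appear as wild type in the names given to their tables. All samples were labelled as flower bud, rosette and stem together, at Boyes stage 5.10, grown on soil with 16 h of light at 20 °C and 8 h of night at 18 °C. The labels give neither the weight of each organ in a pool nor the number of plants, and where replicates did not come from separate plants their spread may be technical. The genotype field contradicts the title in 2 libraries, replicate 2 titled dyw2 homozygous and replicate 3 titled nuwa homozygous, and titles were followed. Fewer buds in a pool and less of a transcript per bud cannot be told apart in these data.

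In flowers of Arabidopsis, organ identity is set by combinations of MADS-domain transcription factors. AP1 acts in sepals and petals, AP3 and PI together in petals and stamens, AG in stamens and carpels, and the SEPALLATA proteins join all of these complexes. Later in bud growth the stamens form pollen, which is fed and coated by the tapetum, a cell layer of the anther, and these steps use genes that are nearly silent in leaves and stems.

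The bud-poor libraries held 37496733 to 73060217 counts and the bud-rich libraries 47062499 to 97804029, so depth overlapped. Plastid genes took 60.3% to 66.9% of counts in the bud-poor and 57.2% to 65.2% in the bud-rich libraries. Mitochondrial genes took 0.322% to 0.538% and 0.306% to 0.586%. No pair of replicates in a group matched within sampling noise, with a chi-square per degree of freedom of 12.3 to 91.2 over genes. The highest value belonged to nuwa homozygous replicates 1 and 3, which lie on opposite sides of the split.

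The score was 1.13 and 1.08 in nuwa homozygous replicates 1 and 2 and 3.70 in dyw2 heterozygous replicate 2. It ran from 4.55 to 5.35 in the bud-rich libraries. The bud-poor mean was 1.97 ± 1.497 (SD, n = 3) and the bud-rich mean 4.95 ± 0.32 (SD, n = 6). Just inside the threshold lay dyw2 heterozygous replicate 2 at 3.70, and just outside lay nuwa heterozygous replicate 2 and nuwa homozygous replicate 3, both at 4.55. The gap between the classes was 0.85, while the step inside the bud-poor class, from 1.13 to 3.70, was 2.57. The class therefore holds a pair of libraries with little floral transcript and 1 intermediate library.

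**Figure D1:**
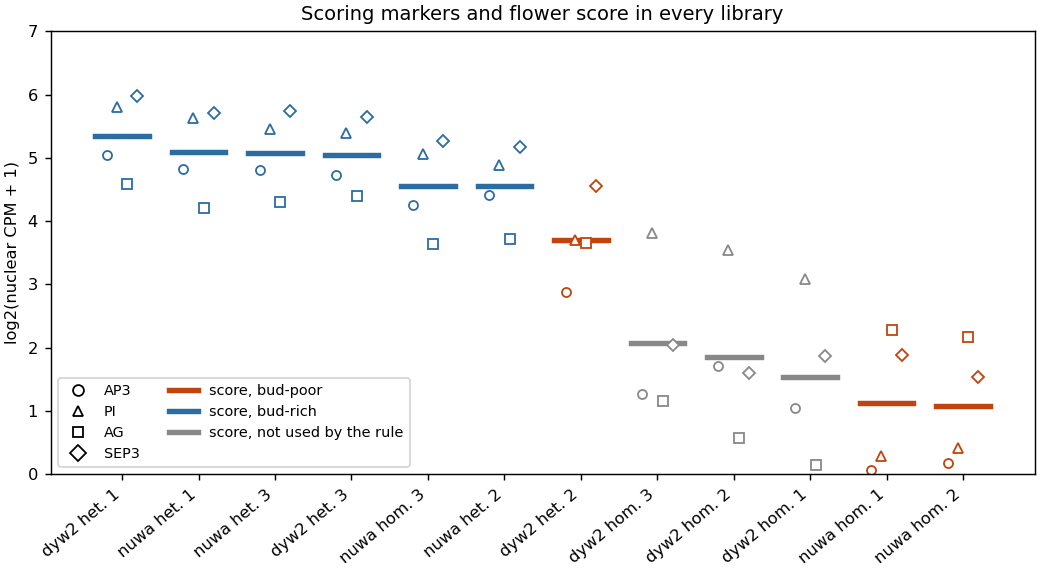
Flower score (bars) and log2(CPM + 1) of the scoring genes AP3, PI, AG and SEP3 (open symbols) in all 12 libraries, ordered by score. The intermediate dyw2 heterozygous replicate 2 sits at 3.70, between the bud-rich libraries at 4.55 or more and nuwa homozygous replicates 1 and 2 at 1.13 and 1.08, and the dyw2 homozygous libraries, which the ranking left out, lie between 1.54 and 2.07.

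AP3, a class B gene of petals and stamens, had 0.0450 and 0.136 CPM in nuwa homozygous replicates 1 and 2 and 6.35 CPM in dyw2 heterozygous replicate 2. In the bud-rich libraries it had 31.9 and 25.6 CPM (dyw2 heterozygous 1 and 3), 27.4, 20.4 and 27.1 CPM (nuwa heterozygous 1 to 3) and 18.05 CPM (nuwa homozygous 3). Its class B partner PI had 0.225, 0.341 and 12.1 CPM in the same 3 bud-poor libraries and 28.7 to 54.8 CPM in the bud-rich ones. SEP3, a cofactor of all floral classes, had 2.70, 1.91 and 22.5 CPM against 35.1 to 61.9 CPM. For these 3 genes every bud-poor library lay below every bud-rich one. AG, the class C gene, kept 3.87 and 3.48 CPM in nuwa homozygous replicates 1 and 2, and its 11.6 CPM in dyw2 heterozygous replicate 2 lay just above the 11.5 CPM of nuwa homozygous replicate 3, so the classes overlapped for AG.

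Over the nuclear genome the difference ran one way. Of 17987 nuclear genes with a mean of at least 1 CPM over the 9 libraries, 630 (3.5%) were counted as lower, meaning that all 3 bud-poor libraries lay below all 6 bud-rich ones and the mean log2(CPM + 1) differed by at least 1. None was counted as higher. With no minimum size, 1615 genes (8.98%) lay lower without overlap and 236 (1.31%) higher, and the largest such rise was 0.54 on the log2(CPM + 1) scale. Of the 630 genes 206 were lower by at least 2 and 72 by at least 3. In 353 of them the mean of the bud-poor libraries was under 1 CPM, so these met the filter only through the bud-rich libraries. In 154 of them both nuwa homozygous replicates 1 and 2 had 0 counts, which at their depth allows up to 0.135 and 0.205 CPM (3 counts, counting error only). The median over all 17987 genes was -0.10. It was 0.03 with TMM scaling over the 9 libraries, so differences near this size depend on the scaling. Without dyw2 heterozygous replicate 2, 953 genes were lower and 20 higher. Without nuwa homozygous replicate 3, the library with the disputed label, 671 were lower and 2 higher.

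Both kinds of library occur under the same label in 2 groups that share no library. Within the dyw2 heterozygous group replicate 2 was at least 1 lower than the mean of replicates 1 and 3 in 527 of the 17987 genes (2.93%). Within the nuwa homozygous group the mean of replicates 1 and 2 was at least 1 lower than replicate 3 in 1207 genes (6.71%). The lists shared 396 genes, 75.1% of the first and 32.8% of the second. In the other direction there were 26 and 37 genes with none in common. The 3 genes AT1G15002, AT1G15405 and AT1G31835, picked out after their values were seen, were at least 1 lower in the bud-poor library of the first group and at least 1 higher in those of the second, and no gene did the reverse. The scoring genes defined which libraries were compared, so these shares are a description and carry no test.

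**Figure D2:**
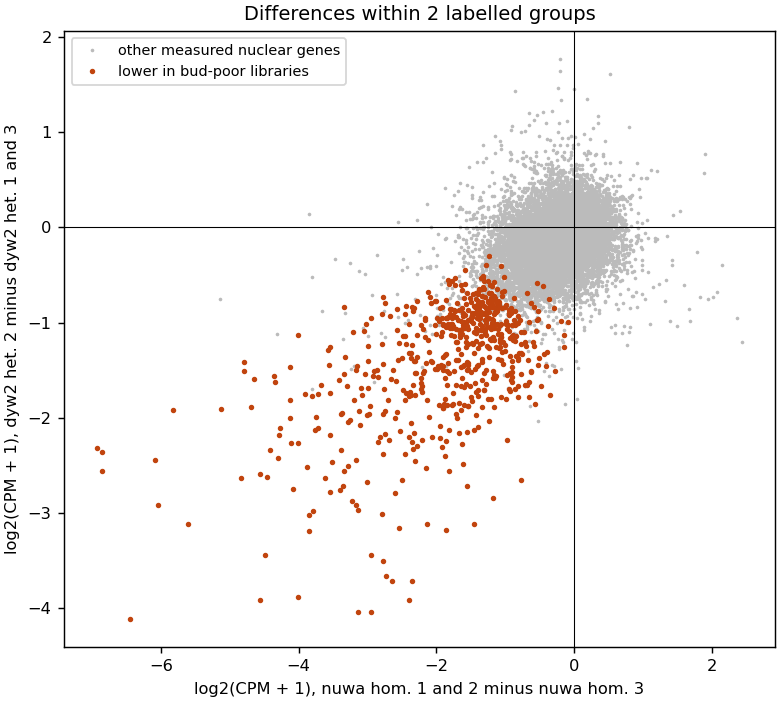
Each point is a measured nuclear gene, placed by its difference in log2(CPM + 1) between bud-poor and bud-rich libraries within the nuwa homozygous group (x axis) and within the dyw2 heterozygous group (y axis), with the 630 counted genes in orange. The counted genes spread into the lower left, with medians of -1.57 and -1.24, while the medians of all measured genes are -0.22 and -0.14.

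The 12 largest falls included genes of anthers, of surface lipids, of cell walls and of jasmonate response. VSP1, a vegetative storage protein gene known as a jasmonate-induced marker, had 0.315 and 2.66 CPM in nuwa homozygous replicates 1 and 2 and 20.8 CPM in dyw2 heterozygous replicate 2. Its bud-rich values ran from 191 CPM in nuwa homozygous replicate 3 to 416 CPM in dyw2 heterozygous replicate 3, with a mean difference of -5.98 (2.24 ± 2.05 against 8.21 ± 0.38, SD of log2(CPM + 1), n = 3 and 6). AT5G22430 had 0.0450, 0.0682 and 29.9 CPM in nuwa homozygous replicates 1 and 2 and dyw2 heterozygous replicate 2, and 116 to 184 CPM in the bud-rich libraries (difference -5.56). ATA27, an anther gene, had 0.0450, 0.0682 and 18.8 CPM against 68.8 to 193 CPM (-5.41). XTH3, of a family of enzymes that cut and rejoin xyloglucan in the cell wall, had 0 counts in both nuwa homozygous replicates, 2.42 CPM in dyw2 heterozygous replicate 2 and 22.5 to 59.6 CPM in the bud-rich libraries (-4.75). THI2.1, which encodes an antimicrobial thionin, had 0.0450, 0 and 2.68 CPM against 22.04 to 62.6 CPM (-4.63). In each of these the nuwa homozygous pair was near 0 and the dyw2 heterozygous library stood between the pair and the bud-rich range. The others were AT2G20870 (-5.47), AT5G33370 (-5.38), EXL4 (-5.12), GRP19 (-5.11), AT1G66850 (-4.48), DCR (-4.33) and the lipid transfer protein gene LTP6 (-4.20).

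Among further genes of floral organ identity, 3 of 10 measured genes of the class A, class E and meristem identity list were counted as lower (13 listed, list median -0.60). AP1 had 0 counts in nuwa homozygous replicates 1 and 2, 6.43 CPM in dyw2 heterozygous replicate 2 and 11.2 to 27.0 CPM in the bud-rich libraries. SEP2, a SEPALLATA gene close to SEP1, had 0.0901, 0.0682 and 8.66 CPM against 17.3 to 28.4 CPM. AGL6, a MADS gene related to the SEPALLATA group, had 0.180, 0.205 and 1.02 CPM against 1.75 to 4.003 CPM. The other 7 measured members were not counted. Summed over all 13 listed genes the level was 55.2% and 61.1% of the bud-rich mean in the nuwa homozygous pair and 78.0% in dyw2 heterozygous replicate 2.

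For stamens, petals and carpels, 2 of 4 measured petal and stamen genes and 5 of 10 measured gynoecium and ovule genes were counted as lower, with list medians of -1.08 and -0.99. Of all measured genes 3.5% were counted as lower. The summed gynoecium list kept 84.6% and 80.5% of the bud-rich mean in nuwa homozygous replicates 1 and 2 and 80.4% in dyw2 heterozygous replicate 2. The summed petal and stamen list had 43.0%, 34.7% and 94.1% in the same libraries. MYB21, which promotes late growth of petals and stamen filaments, had 0 counts in all 3 bud-poor libraries and 5.85 to 18.6 CPM in the bud-rich ones. SPL (SPOROCYTELESS), needed to start the sporogenous tissue, had 0, 0 and 0.340 CPM against 1.28 to 2.04 CPM. STK, which gives ovules their identity, had 0.0450, 0 and 2.95 CPM against 4.16 to 7.53 CPM. CRC, of carpel and nectary growth, had 0.135, 0 and 0.340 CPM against 1.09 to 3.61 CPM. SHP2, of the carpel valve margin, had 0, 0.0682 and 0.605 CPM against 1.53 to 2.74 CPM. ANT, which promotes growth of ovules and of other organs, had 2.16, 1.98 and 3.78 CPM against 5.88 to 12.6 CPM. The levels of ANT in the nuwa homozygous pair were further from 0 than those of STK, CRC and SHP2, each read against its own bud-rich range.

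Genes of the anther were among those lower in bud-poor libraries. Of 17 measured tapetum and pollen wall genes (22 listed after 1 was left out) 13 were counted as lower, with a median of -2.24. Of 11 pollen coat genes 9 were, with a median of -2.75, and of 8 measured late pollen genes (16 listed) 6 were, with a median of -1.86. ACOS5, an acyl-CoA synthetase of sporopollenin synthesis, had 0 counts in all 3 bud-poor libraries and 26.5, 6.92, 20.8, 9.41, 22.1 and 15.1 CPM in the bud-rich ones. MS2, which makes fatty alcohols for the pollen wall, likewise had 0 counts in all 3 and 6.06 to 24.4 CPM. AT5G07230 had 0 counts in all 3 and 4.102 to 15.7 CPM. ATA7, a lipid transfer protein gene of the anther, had 0, 0.0682 and 1.44 CPM against 8.26 to 34.5 CPM. For these tapetal genes dyw2 heterozygous replicate 2 was at or near the level of the nuwa homozygous pair, although its scoring genes were intermediate.

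Pollen coat genes showed another grading. EXL4, an extracellular lipase of the pollen coat, had 0.0450 and 0.0682 CPM in nuwa homozygous replicates 1 and 2, 11.3 CPM in dyw2 heterozygous replicate 2 and 50.5 to 123 CPM in the bud-rich libraries. GRP19, a glycine-rich oleosin of the pollen coat, had 0.0450, 0.136 and 23.2 CPM against 68.6 to 137 CPM. EXL6, another lipase of that family, had 0, 0 and 8.92 CPM against 18.3 to 47.5 CPM, and the oleosin gene GRP20 had 0.180, 0 and 6.96 CPM against 16.0 to 48.03 CPM. Here dyw2 heterozygous replicate 2 kept a clear part of the bud-rich level. EXL4, AT1G75920, EXL6 and ATA27 follow each other among the measured genes of chromosome 1, and GRP16, GRP19 and GRP20 do so on chromosome 5, in the TAIR10.1 annotation, and all 7 were counted as lower. Near-identical family members could have lost reads with equal alignment scores, which were removed before counting, so single members of the GRP cluster are uncertain. Summed over its 11 genes the pollen coat list had 21.4, 28.3 and 99.3 CPM in the bud-poor libraries and 223 to 483 CPM in the bud-rich ones.

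In the late pollen list the 4 counted genes with the largest differences were near 0 in both nuwa homozygous replicates. PPME1, a pectin methylesterase of the pollen tube, had 0, 0.0682 and 3.36 CPM against 4.71 to 31.9 CPM. VGDH1, of the same enzyme family, had 0.135, 0.273 and 0.113 CPM against 1.77 to 10.12 CPM. ACA9, a calcium pump of the pollen membrane, had 0, 0 and 0.605 CPM against 2.30 to 7.31 CPM, and PRK2, a pollen receptor kinase, had 0 counts in all 3 and 0.766 to 5.82 CPM. The bud-rich libraries themselves spread widely in this list, whose sum ran from 22.2 CPM in dyw2 heterozygous replicate 3 to 115 CPM in dyw2 heterozygous replicate 1. Of the meiosis genes only 2 of 10 listed were measured and neither was counted, although both lay lower without overlap. DMC1, the meiotic recombinase, had 1.58, 2.32 and 2.65 CPM against 3.68 to 6.18 CPM, and HEI10, of crossover formation, had 1.26, 1.98 and 2.004 CPM against 2.35 to 3.83 CPM.

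Genes of the open flower followed. Of 5 measured scent and nectary genes (8 listed) 4 were counted as lower, with a median of -2.24. AT5G44630, annotated as a sesquiterpene synthase, had 0, 0 and 3.44 CPM against 8.75 to 22.9 CPM. The terpene synthase genes TPS14 and TPS10 had 0 counts in all 3 bud-poor libraries, against 1.26 to 11.8 and 0.547 to 8.70 CPM, and CWINV4, a cell wall invertase needed for nectar, had 0, 0 and 1.17 CPM against 2.68 to 7.22 CPM. In these 4 genes nuwa homozygous replicate 3 was the lowest bud-rich library.

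Meristem and division genes were lower too. Of 5 measured shoot meristem and boundary genes (9 listed) 4 were counted, with a median of -1.46, and of 21 cell division genes 10 were, with a median of -0.997. STM, which keeps meristem cells undifferentiated, had 0, 0.0682 and 1.40 CPM in the bud-poor libraries and 3.47 to 7.37 CPM in the bud-rich ones. KNAT1 and KNAT2, of the same homeobox family, had 0.225, 0.205 and 0.869 CPM against 2.95 to 6.63 CPM, and 0, 0 and 0.378 CPM against 1.19 to 2.84 CPM. WUS, of the stem cell niche, had 0, 0 and 0.454 CPM against 0.683 to 3.35 CPM. Summed over all 9 listed meristem genes, however, the level was 101% of the bud-rich mean in dyw2 heterozygous replicate 2. In nuwa homozygous replicates 1 and 2 that sum was 58.7% and 56.3%. KN, the syntaxin of the dividing cell plate, had 1.44, 1.84 and 4.84 CPM against 6.32 to 14.1 CPM. HIK, a kinesin of the same structure, had 0.405, 0.750 and 2.46 CPM against 3.57 to 8.83 CPM. The mitotic cyclin gene CYCB1;1 had 0.541, 0.409 and 1.55 CPM against 2.32 to 6.13 CPM, and CYCB1;2 had 1.26, 1.91 and 3.74 CPM against 4.24 to 12.9 CPM. Over all 21 division genes dyw2 heterozygous replicate 2 had a median of 51.6% of the bud-rich mean and nuwa homozygous replicates 1 and 2 had 23.2% and 30.0%.

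The upstream sequences of the 4 cell division genes just named are shown because division genes of plants carry the MSA element, whose core is AACGG, more often than other genes. Each window is the 300 bases upstream of the gene start in the TAIR10.1 annotation of RefSeq, written in the direction of transcription, and holds no annotated exon. Capitals mark the core or its reverse complement. The windows are chr1:2711001-2711300 (minus strand) for KN, chr1:6324379-6324678 (minus) for HIK, chr4:17624309-17624608 (minus) for CYCB1;1 and chr5:1861704-1862003 (minus) for CYCB1;2.
KN: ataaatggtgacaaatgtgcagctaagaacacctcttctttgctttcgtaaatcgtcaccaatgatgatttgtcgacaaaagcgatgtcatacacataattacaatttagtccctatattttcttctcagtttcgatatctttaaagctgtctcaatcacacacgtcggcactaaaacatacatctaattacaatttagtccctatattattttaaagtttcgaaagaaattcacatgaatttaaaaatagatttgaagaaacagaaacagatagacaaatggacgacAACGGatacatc
HIK: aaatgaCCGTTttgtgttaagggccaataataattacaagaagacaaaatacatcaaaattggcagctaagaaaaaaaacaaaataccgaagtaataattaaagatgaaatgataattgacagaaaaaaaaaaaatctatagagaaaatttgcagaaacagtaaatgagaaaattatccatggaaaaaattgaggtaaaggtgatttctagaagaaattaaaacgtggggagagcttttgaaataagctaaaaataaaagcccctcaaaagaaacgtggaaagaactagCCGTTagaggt
CYCB1;1: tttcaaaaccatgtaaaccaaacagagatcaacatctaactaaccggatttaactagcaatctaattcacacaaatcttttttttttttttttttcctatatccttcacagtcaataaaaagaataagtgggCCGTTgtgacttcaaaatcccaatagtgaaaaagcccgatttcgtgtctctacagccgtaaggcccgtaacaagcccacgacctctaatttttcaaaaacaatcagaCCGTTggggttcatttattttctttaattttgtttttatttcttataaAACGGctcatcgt
CYCB1;2: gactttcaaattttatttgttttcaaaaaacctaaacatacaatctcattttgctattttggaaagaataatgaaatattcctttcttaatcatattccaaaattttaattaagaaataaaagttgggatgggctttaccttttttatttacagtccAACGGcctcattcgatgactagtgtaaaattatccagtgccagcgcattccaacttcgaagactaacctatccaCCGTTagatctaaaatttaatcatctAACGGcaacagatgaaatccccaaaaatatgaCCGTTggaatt
The core, searched on both strands, occurred once in the window of KN, 2 times in that of HIK, 3 times in that of CYCB1;1 and 4 times in that of CYCB1;2. It was found in the windows of 13 of the 21 cell division genes (61.9%), of 159 of the 630 lower genes (25.2%) and of 4498 of 17966 measured genes with a window (25.04%). A match is a description of letters and not a site.

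For comparison the window of ACOS5, at chr1:23310232-23310531 on the plus strand, is shown as that of a tapetal gene with 0 counts in every bud-poor library, with E-box letters (CANNTG, which read alike on both strands) in capitals.
ACOS5: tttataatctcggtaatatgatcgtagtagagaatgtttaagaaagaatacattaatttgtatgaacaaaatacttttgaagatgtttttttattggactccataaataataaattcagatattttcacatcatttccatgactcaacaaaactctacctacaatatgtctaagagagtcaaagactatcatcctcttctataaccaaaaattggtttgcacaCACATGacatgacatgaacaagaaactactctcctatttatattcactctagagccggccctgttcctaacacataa
An E-box, the motif class of the basic helix-loop-helix factors that act in the tapetum, was found in 10 of the 17 measured tapetal genes (58.8%), 407 of the 630 lower genes (64.6%) and 11230 of the 17966 measured genes (62.5%). The CArG box, to which MADS-domain factors bind, was found in 19 of the 630 lower genes (3.02%) and 555 of the 17966 (3.09%), and in the windows of none of the 4 scoring genes. The G-box CACGTG, which is also an E-box, was found in 53 (8.41%) and 1423 (7.92%).

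Surface lipid genes formed the next group. Of 21 measured cuticle and wax genes (23 listed) 9 were counted as lower, with a median of -1.29. DCR, an acyltransferase of cutin synthesis, had 0.405 and 0.477 CPM in nuwa homozygous replicates 1 and 2, 22.9 CPM in dyw2 heterozygous replicate 2 and 40.8 to 113 CPM in the bud-rich libraries. GPAT6, which makes cutin monomers for petals, had 1.22, 1.64 and 5.94 CPM against 24.3 to 42.5 CPM, and CYP86A7, a fatty acid hydroxylase gene, had 0.0901, 0 and 3.40 CPM against 14.2 to 26.2 CPM. CER1, of wax alkane synthesis in stems and flowers, had 0.631, 3.00 and 19.2 CPM against 28.3 to 81.2 CPM. Summed over all 23 genes the list kept 59.9% and 72.1% of the bud-rich mean in the nuwa homozygous pair and 87.2% in dyw2 heterozygous replicate 2.

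Of 10 jasmonate genes only VSP1 and its neighbour VSP2 were counted as lower, and the list median was -0.14, a value that moved to -0.01 with TMM scaling. VSP2 had 11.8, 43.3 and 11.9 CPM in the bud-poor libraries and 77.5 to 132 CPM in the bud-rich ones, and here dyw2 heterozygous replicate 2 was as low as nuwa homozygous replicate 1. Of 9 measured flowering time genes 1 was counted, SPL3, a target of miR156, with 12.1, 7.43 and 12.7 CPM against 17.8 to 32.4 CPM. The median of that list was -0.05 and turned to 0.08 with TMM scaling. Of 12 senescence and starvation genes 2 were counted. ASN1, an asparagine synthetase induced by darkness and low sugar, had 3.56, 3.00 and 4.80 CPM against 10.2 to 31.05 CPM. BCAT2, of branched-chain amino acid breakdown, had 0.586, 0.205 and 1.55 CPM against 1.64 to 8.85 CPM.

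Leaf markers were not lower in the bud-poor libraries. None of 36 nuclear photosynthesis genes was counted in either direction, and their differences ran from -0.00 to 0.41 with a median of 0.15 (0.29 with TMM scaling). With no minimum size 6 of the 36 lay higher without overlap, beside 1.31% of all measured genes, and 0 lay lower. Summed over the list the level was 207195 to 219303 CPM in the bud-poor libraries and 183326 to 200866 CPM in the bud-rich ones, so the sums did not overlap. RBCS1A, a Rubisco small subunit gene, had 25446, 27430.5 and 29196 CPM in nuwa homozygous replicates 1 and 2 and dyw2 heterozygous replicate 2, and 21109 to 26702 CPM in the bud-rich libraries. CAB1, a light-harvesting protein gene, had 20297, 18038 and 20223 CPM against 16229.5 to 18588 CPM, and the classes overlapped for both genes. None of 14 measured secondary cell wall genes, which mark stem, was counted, with a median of -0.32. The sum of that list was 60.8, 65.9 and 110 CPM in the bud-poor and 53.5 to 133 CPM in the bud-rich libraries. In nuwa homozygous replicates 1 and 2 this was 64.1% and 69.4% of the bud-rich mean, near the 55.2% and 61.1% of the class A and E list, and in dyw2 heterozygous replicate 2 it was 116%. Within the nuwa homozygous group 5 of the 14 stem genes were at least 1 lower in replicates 1 and 2 than in replicate 3 (median -0.61), where 6.71% of all measured genes were, and within the dyw2 heterozygous group 0 of 14 were. IRX14, of xylan synthesis, had 15.5, 18.07 and 16.6 CPM against 15.1 to 19.1 CPM, and the lignin laccase gene LAC17 4.19, 7.02 and 16.5 CPM against 3.53 to 18.4 CPM. No member of the seed list was measured, with a sum of at most 0.529 CPM in the bud-poor and 1.26 CPM in the bud-rich libraries over 11 genes. Of 11 defence genes none was counted, and PR1 and PR2 ranged within the bud-rich class from 29.4 to 273 and from 12.0 to 222 CPM. Within the nuwa homozygous group, however, 7 of the 11 defence genes were at least 1 lower in replicates 1 and 2 than in replicate 3 (median -1.02, beside the same 6.71% of all genes), and within the dyw2 heterozygous group 2 were (median 0.02). The part of the stem and defence differences in the floral values was not tested.

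**Figure D3:**
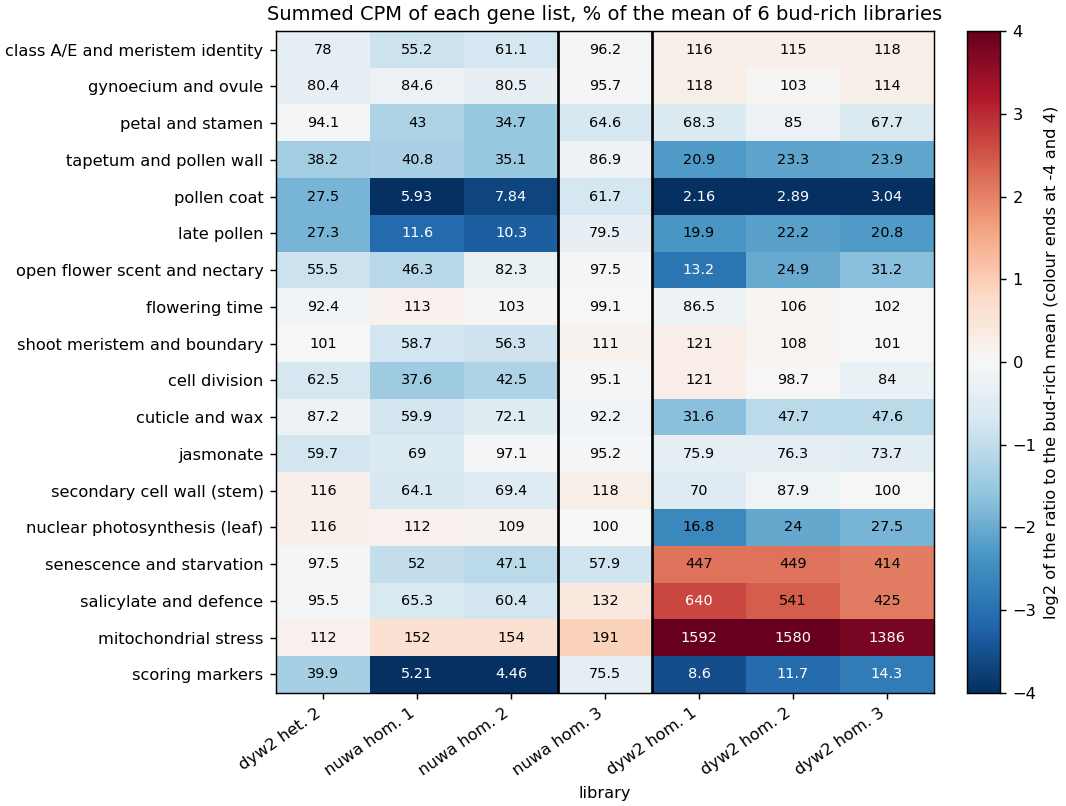
Summed CPM of every list except meiosis and seed over all its members, as a percentage of the mean of the 6 bud-rich libraries. Columns are the 3 bud-poor libraries (left), nuwa homozygous replicate 3 (middle, itself bud-rich) and the 3 dyw2 homozygous libraries (right). Pollen coat falls from 61.7% in nuwa homozygous replicate 3 to 5.93% and 7.84% in replicates 1 and 2, while photosynthesis stays between 109% and 116% in the bud-poor libraries.

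In the intermediate library the share of the bud-rich level varied from gene to gene. Over the 630 counted genes dyw2 heterozygous replicate 2 had a median of 30.3% of the bud-rich mean, nuwa homozygous replicate 1 3.42% and replicate 2 4.66%. In 257 of the 630 genes it had under 25% of the bud-rich mean, in 267 between 25% and 50%, and in 106 more. It lay above both other bud-poor libraries in 549 of 630. By list its median over all measured members was 7.74% for tapetum, 14.1% for late pollen, 20.8% for scent and nectary, 24.0% for meristem, 27.5% for pollen coat, 51.6% for cell division, 61.3% for gynoecium, 71.1% for cuticle and 75.7% for class A and E. The summed level of a list could be far from its median, at 38.2% for tapetum, 55.5% for scent and nectary and 101% for meristem. It was 62.5% for cell division and 80.4% for gynoecium. Over the counted members alone the medians were 0.754% for tapetum, 7.12% for late pollen, 10.4% for scent and nectary, 20.9% for meristem, 25.9% for pollen coat, 28.2% for cuticle, 36.0% for class A and E, 40.3% for gynoecium and 47.9% for cell division. The counted members passed because they were high in bud-rich libraries, so the order of the lists changed with the choice of members. Single counted tapetal genes reached 45.7%, the value of DRL1. All of these are descriptions of 1 library.

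**Figure D4:**
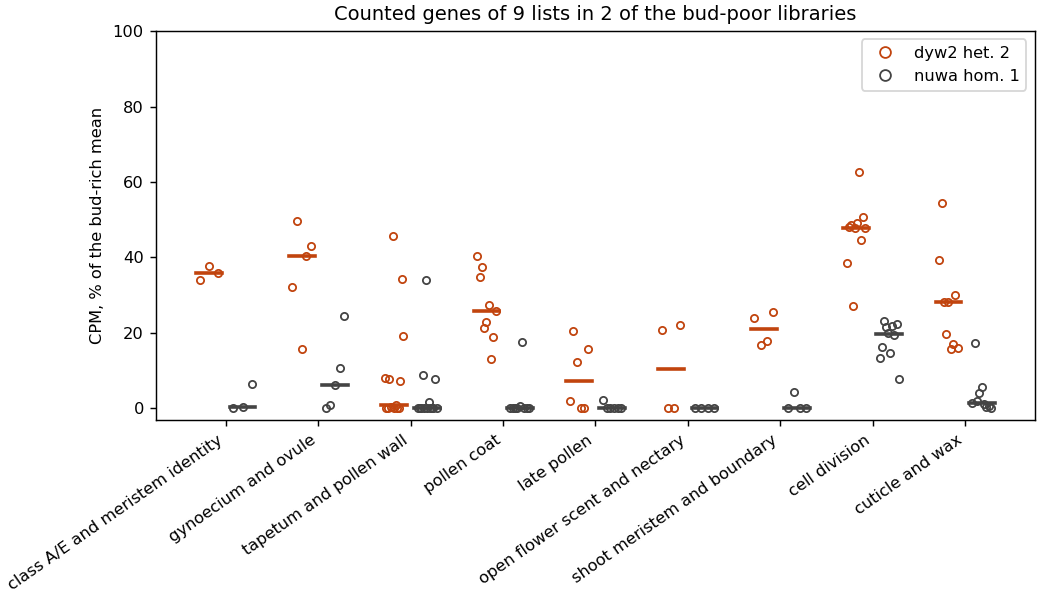
CPM as a percentage of the bud-rich mean for the counted genes of 9 lists, in dyw2 heterozygous replicate 2 (orange) and nuwa homozygous replicate 1 (grey), with bars at the medians. The genes shown are those that passed the count, so their medians lie apart from those over all measured members (in orange 0.754% against 7.74% for tapetum, and 47.9% against 51.6% for cell division). In grey the medians run from 0% to 19.6%.

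The 3 dyw2 homozygous libraries, which the ranking did not use, had scores of 1.54, 1.86 and 2.07. Over the 630 genes their medians were 24.5%, 27.0% and 24.8% of the bud-rich mean. In 382 of the 630 genes (60.6%) all 3 lay below all 6 bud-rich libraries, as they did in 3721 of the 17987 measured genes (20.7%), a background that holds every other difference of this genotype too. Of the anther lists, pollen coat summed to 2.16% to 3.04% of the bud-rich mean, tapetum to 20.9% to 23.9% and late pollen to 19.9% to 22.2%. Single anther genes were near 0, with ACOS5 at 0, 0.0615 and 0.0946 CPM, EXL4 at 0, 0.184 and 0 CPM and GRP19 at 0, 0.0615 and 0 CPM. The meristem genes STM and KNAT1 were not, with STM at 16.8, 14.3 and 12.0 CPM and KNAT1 at 29.7, 21.1 and 20.6 CPM, all above the highest bud-rich value. CYCB1;1 had 17.0, 14.1 and 10.9 CPM, also above every bud-rich library, and DCR had 23.7, 33.4 and 32.07 CPM where nuwa homozygous replicates 1 and 2 had under 0.5 CPM. In 131 of the 630 genes the mean of the dyw2 homozygous libraries reached or passed the bud-rich mean. All these values are nuclear CPM, and no other scaling was tried for them. The photosynthesis list summed to 31859, 45407 and 52134 CPM in the dyw2 homozygous libraries and to 183326 to 200866 CPM in the bud-rich ones. A smaller share for these genes raises the CPM of all others, so levels above the bud-rich range depend on the scaling.

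These libraries also differed in their leaf and stress markers, with the photosynthesis list at 16.8% to 27.5% of the bud-rich mean, the senescence list at 414% to 447% and plastid genes at 26.6% to 32.5% of counts. The part of these differences in the floral values was not tested. In the labelled contrast of dyw2 homozygous with dyw2 heterozygous libraries, which shares the dyw2 heterozygous libraries with the split, edgeR called 30.1% of 21213 genes higher and 32.8% lower at an adjusted p under 0.05. All 11 pollen coat genes and 15 of 19 tested tapetal genes were lower. Of 12 tested late pollen genes 9 were lower and 1 was higher, ANX1, a receptor kinase gene of the pollen tube that is named here after its value was seen. Meanwhile of 21 cell division genes 9 were lower and 1 higher, and of 8 tested meristem genes 1 was lower and 2 higher. KNAT1 rose by 1.89 ± 0.70 (log2 fold change ± SE, edgeR adjusted p = 0.0345) and CYCB1;1 by 1.59 ± 0.60 (edgeR adjusted p = 0.0356). STM had 1.01 ± 0.87 (edgeR adjusted p = 0.329) and did not pass. HEI10 rose by 1.89 ± 0.23 (edgeR adjusted p = 2.84e-05).

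**Figure D5:**
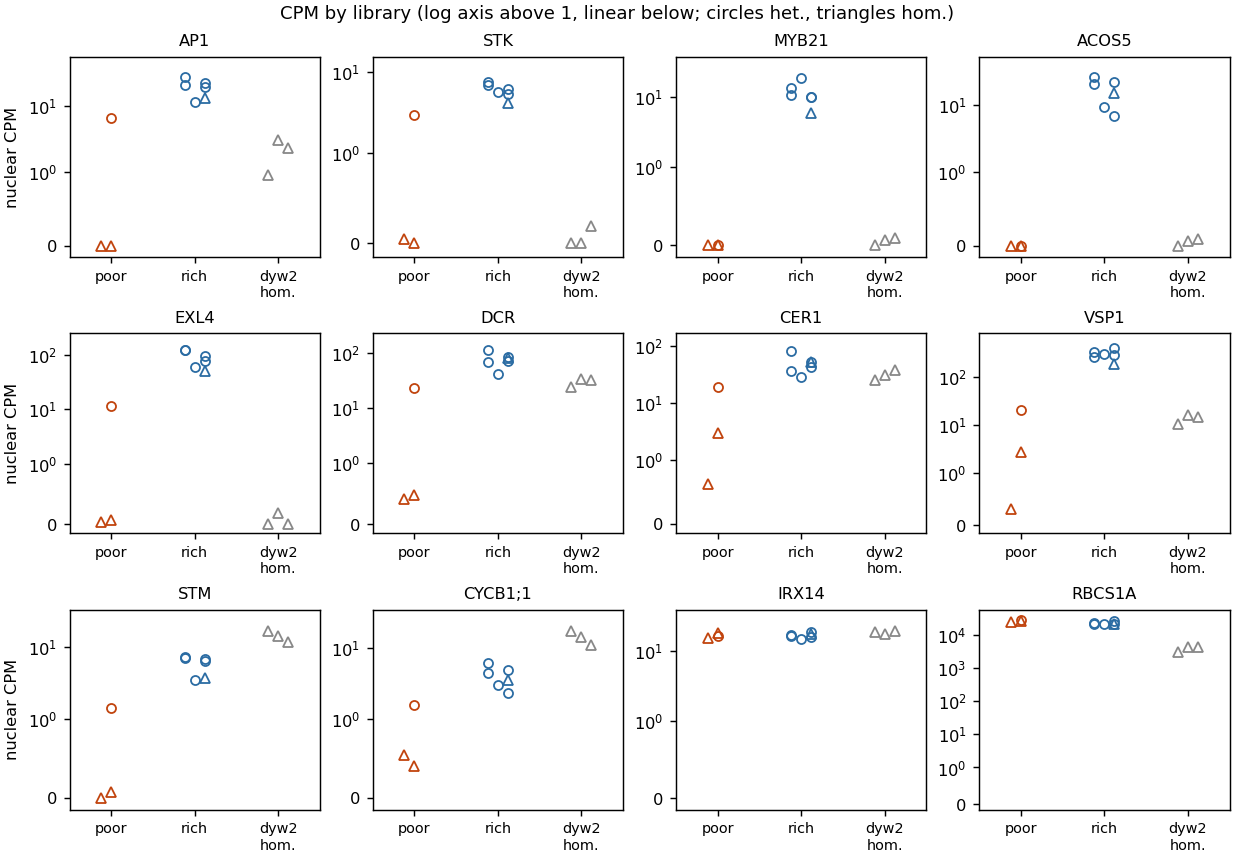
Nuclear CPM of 12 genes in each library, in the bud-poor, bud-rich and dyw2 homozygous classes, on an axis that is linear below 1 and logarithmic above, with circles for libraries labelled heterozygous and triangles for homozygous. The tapetal gene ACOS5 is at 0 in all bud-poor libraries and under 0.1 CPM in dyw2 homozygous ones, while STM reaches 12.0 to 16.8 CPM in the latter and IRX14 stays between 15.1 and 19.7 CPM in all libraries.

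The split bears on the labelled comparison of nuwa homozygous with nuwa heterozygous libraries, since 2 of the 3 homozygous libraries were bud-poor and all 3 heterozygous ones were bud-rich. With all libraries edgeR called 327 genes higher (1.54% of 21213) and 135 lower (0.636%). Of 143 tested members of the 12 flower, meristem, division and cuticle lists edgeR called none, although 57 were lower at an unadjusted p under 0.05. Over all genes 4034 of 21213 had an unadjusted edgeR p under 0.05, in either direction. DESeq2 called 9 lower of 162 members, beside 574 lower of 28240 genes. These members include the 4 scoring genes, which defined the split, and AG was among the DESeq2 calls. Without nuwa homozygous replicate 3 edgeR called 495 of 21734 genes higher (2.28%) and 1244 lower (5.72%). Among the lower were 83 of 147 tested members of these lists, such as 10 of 11 pollen coat, 15 of 21 cell division and 7 of 8 tested meristem genes. All 4 scoring genes were among these 83. That fit compares bud-poor libraries with bud-rich ones and repeats the split. Without the 3 bud-poor libraries, which leaves nuwa homozygous replicate 3 alone and assumes that it varies like the other groups, edgeR called 151 genes higher (0.679% of 22244) and 16 lower (0.0719%), and of 152 tested list members none, with 18 lower at an unadjusted p under 0.05.

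Mitochondrial stress genes were higher in nuwa homozygous libraries on both sides of the split. Of 11 tested members edgeR called 7 higher in nuwa homozygous libraries, beside 1.54% of all genes tested. Without nuwa homozygous replicate 3 it also called 7, beside 2.28% of all genes. Without the bud-poor libraries the median log2 fold change of the list was 1.25, beside 1.31 with all libraries. AOX1A, the alternative oxidase of mitochondria, had 118, 106 and 124 CPM in nuwa homozygous replicates 1 to 3 and 39.8, 52.6 and 45.4 CPM in nuwa heterozygous ones (log2 change 1.31 ± 0.16, edgeR adjusted p = 0.00337). For dyw2 heterozygous replicate 2, the other bud-poor library, the level was 48.9 CPM, beside 43.2 and 58.7 CPM in replicates 1 and 3. AT2G04050, a gene of the MATE efflux family, had 9.78, 10.8 and 9.74 CPM in the nuwa homozygous and at most 0.386 CPM in the nuwa heterozygous libraries (5.31 ± 0.39, edgeR adjusted p = 9.59e-05). AT2G21640, known as an oxidative stress marker, rose by 3.03 ± 0.21 (edgeR adjusted p = 9.48e-05). AT3G49320, which is not in the stress list, rose by 2.41 ± 0.18 (edgeR adjusted p = 9.59e-05). AT2G07733, also outside that list, rose by 2.43 ± 0.18 (edgeR adjusted p = 9.59e-05), but lies where the nuclear genome carries copied mitochondrial sequence, so its reads are uncertain. In all of these genes nuwa homozygous replicate 3, whose genotype field names dyw2, stood with replicates 1 and 2. The contrast also served to choose named genes, and a small p favours homozygous replicates that stand together. This agreement was therefore partly set by the choice and does not bear on the disputed label.

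Among genes called lower in nuwa homozygous libraries, the 5 with the smallest p were AT5G52882, AT5G02540, OPT4, AT3G15450 and AT2G30600, and none was counted in the split. Homozygous replicates that stand together favour a small p, while a counted gene needs them to differ, so this lack of overlap was partly set by the rules. AT5G02540 had 6.40, 5.39 and 6.34 CPM in the homozygous and 19.8, 13.3 and 21.4 CPM in the heterozygous libraries (log2 fold change -1.60 ± 0.22 SE, edgeR adjusted p = 0.00627). Without the bud-poor libraries its fold change was as large, at -1.69 ± 0.36 (edgeR adjusted p = 0.0727). OPT4, an oligopeptide transporter gene, had -0.81 ± 0.12 (edgeR adjusted p = 0.0101), and without the bud-poor libraries -0.89 ± 0.18 (edgeR adjusted p = 0.058). Both calls ended in that smaller fit while neither fold change shrank, and the OPT4 call also ended without nuwa homozygous replicate 2 (edgeR adjusted p = 0.0588). ASN1, counted as lower in the split, was also called here at -2.07 ± 0.47 (edgeR adjusted p = 0.0485), and at -1.31 ± 0.42 without the bud-poor libraries did not pass (edgeR adjusted p = 0.211). The ASN1 call also ended without nuwa homozygous replicate 1 (edgeR adjusted p = 0.105) or 2 (0.189).

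Between both heterozygous groups, of which 1 library is bud-poor, edgeR called 6 genes higher in dyw2 heterozygous libraries (0.0283% of 21213) and 22 lower (0.104%). Of the 143 tested list members it called none, with 3 lower at an unadjusted p under 0.05 and none by DESeq2. Over all genes 1294 of 21213 had an unadjusted edgeR p under 0.05, in either direction. UCH1, a ubiquitin hydrolase gene, had 10.7, 9.87 and 10.8 CPM in dyw2 heterozygous and 30.5, 32.0 and 30.4 CPM in nuwa heterozygous libraries (log2 fold change -1.68 ± 0.10 SE, edgeR adjusted p = 6e-05), so the bud-poor replicate 2 did not stand apart. IPP1, AT5G16450, AT5G16410 and AT5G16470 were the others with the smallest p among those lower, and AT4G22580, NET2B, AT3G44570, MUG2 and RRTF1 among those higher. By their ids AT5G16450, AT5G16410 and AT5G16470 lie close together on the same chromosome, and whether they differ separately was not tested. NET2B had 4.22, 2.99 and 1.84 CPM in dyw2 heterozygous libraries, 13.7 to 17.0 CPM in dyw2 homozygous ones and at most 0.109 CPM in the 6 libraries titled nuwa.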

How the data were processed

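Per the file headers, the deposited values are raw read counts for every gene model, given separately for each of 12 libraries. Libraries came from a stranded total-RNA kit after ribosomal depletion, per the labels' protocols. TopHat2, Bowtie2 and TAIR10 are named, without versions, in the submitters' processing notes. Reads with equally good best alignments, 2.54% to 3.39% in the 9 ranked libraries, were dropped by the authors, per the file headers. The sources used here do not state a strand setting for counting, and reads of a gene and an antisense partner were not told apart. Groups follow the sample titles.

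Only nuclear gene models entered the description (33323 of 33602). CPM was taken over nuclear counts, which ran from 14667404 to 33690734 in the 9 ranked libraries, and levels were put on log2(CPM + 1). The libraries were split at the 3 lowest flower scores by a fixed rule. The members, the gene lists and the rules were chosen with earlier results of these data known. Named genes are the 4 scoring markers, the 12 largest falls and rises counted, up to 4 counted members per list and direction (or the 2 most abundant members where none was counted) and up to 5 genes per direction with the smallest p in the labelled contrasts of nuwa homozygous with heterozygous and of both heterozygous groups. Others were chosen after their values were seen. One tapetal entry was left out because the annotation gives it another name. Medians and counts over a list cover its measured members, and sums cover all members.

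Labelled contrasts were tested with the quasi-likelihood F-test of edgeR 4.0.16 (R 4.3.3), with TMM scaling, filterByExpr (minimum count 10, minimum total 15), 1 model of the 4 groups and Benjamini-Hochberg adjustment over all genes tested. The fit was tested on simulated data. DESeq2 1.42.0, a replicate block, leaving out libraries and other scalings, pseudocounts and filters were alternatives. Intervals from 0 counts cover counting error only. Promoter windows came from the RefSeq TAIR10.1 genome, whose annotation matched 32835 nuclear gene models. The authors' coordinates were not used.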

Additional observations from a re-analysis of the deposited data

Results flagged for a closer look

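In 83 values examined over the 6 bud-rich libraries, 8 had 1 library far from the other 5, and chance alone flags about 1 in 20. In 5 of them the far library was nuwa homozygous replicate 3, the only homozygous library of that class and the one with the disputed genotype field. It had 124 CPM of AOX1A, 28.3 CPM of AT2G21640, 21.3 CPM of AT3G49320, 9.74 CPM of AT2G04050 and 168 CPM of AT2G07733, each above the other 5 bud-rich libraries. The values of these genes in nuwa homozygous replicates 1 and 2, which are bud-poor, lie near those of replicate 3. All 5 genes were called higher in nuwa homozygous against heterozygous libraries, a contrast that also served to choose named genes. The far place of the only homozygous library therefore follows from that choice, and the rate of 1 in 20 does not apply to these 5.

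The other 3 were single high values. SHP2 had 2.74 CPM in dyw2 heterozygous replicate 1, RBCS1A had 26702 CPM in dyw2 heterozygous replicate 3, and BCAT2 had 8.85 CPM in nuwa heterozygous replicate 2.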

How the results depend on the processing

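The same 3 libraries had the lowest score under every scaling and pseudocount tried and without any 1 scoring gene, with a gap of 0.6253 to 1.12 against 0.85. Leaving out each library in turn gave a gap of 0.85 to 3.42, the highest without dyw2 heterozygous replicate 2. The 630 lower genes became 334 with CPM over all genes, 255 with a mean of at least 5 CPM, 206 with a minimum difference of 2, 1615 with none (chosen after seeing the data) and 396 within each labelled group, and 572 to 953 with 1 library left out. The count of higher genes, 0, became 236 with no minimum difference and 0 to 20 with 1 library left out, with 20 without dyw2 heterozygous replicate 2 and 2 without nuwa homozygous replicate 3. Of other list medians and named genes 317 and 755 values kept within the spread of replicates and 6 and 146 moved by more, and none that was counted turned in sign.

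The 462 calls for nuwa homozygous against heterozygous became 1422 with DESeq2, 183 with a replicate block, 167 without the bud-poor libraries, 1411 without both disputed libraries (387 higher, 1024 lower), 100 in a fit of the 9 ranked libraries, and 94 to 1739 with 1 library left out. The count was 118, 211 and 157 without nuwa heterozygous replicate 1, 2 or 3, 94 without nuwa homozygous replicate 2 and 1739 without replicate 3. The 28 calls between heterozygous groups became 152 with DESeq2 and 18 to 115 with 1 library left out, 18 without dyw2 heterozygous replicate 2 and 115 without nuwa heterozygous replicate 2. The cause of these changes was not tested. The 13340 calls for dyw2 stayed within 1.5 times under every alternative run (12814 with the block). The block also ended the nuwa call of ASN1 (edgeR adjusted p = 0.0919). Replicate numbers did not pair the samples: same-numbered libraries correlated at -0.36 to 0.22 across the 3 contrasts, and the block is only a hint. Genes at 0 counts cannot be told from levels under 0.0890 to 0.205 CPM in the 9 ranked libraries.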
